A study of Mus musculus with 8 samples.

Results

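The genes of eicosanoid synthesis and breakdown were followed in mouse pancreatic ductal adenocarcinoma (PDAC) cells in which *Smad4* could be switched off and on and TGFβ signaling could be stimulated or blocked. The 10 genes were *Pla2g4a*, *Ptgs1*, *Ptgs2*, *Ptges*, *Hpgd*, *Ptger4*, *Alox5*, *Alox5ap*, *Alox12* and *Alox15*. They were found by gene symbol, which matched 1 row for each of them among 53465 genes in the count table. The rule itself used the symbols and no measured value, but the set was put together with earlier results of these data known. Of the 10, 6 passed the filter on low counts and were tested (*Pla2g4a*, *Ptgs1*, *Ptgs2*, *Ptges*, *Ptger4* and *Alox5*), and 4 were not tested (*Hpgd*, *Alox5ap*, *Alox12* and *Alox15*).

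Eicosanoids are lipid signals made from arachidonic acid. Phospholipase A2 frees the acid from membranes, cyclooxygenases turn it into prostaglandin H2, and terminal synthases turn that into prostaglandin E2 and the other prostanoids, while lipoxygenases make leukotrienes and hydroxylated fatty acids. Prostaglandin E2 acts through receptors of the EP family and is taken up and oxidized for clearance, and in epithelial cancers cyclooxygenase 2 is best known as the isoform induced by growth factors and inflammation.

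RNA-seq covered 8 libraries from cell lines B73 and B87, in 4 groups of 2 with 1 library per line. Each line came from 1 primary tumor of the pancreas in a mouse model with inducible knockdown of *Smad4*. These mice carried Cre at Ptf1a, a Cre-activated rtTA3-IRES-mKate2 allele at Rosa26 and a homing cassette at Col1a1. Cre driven by Ptf1a acts in pancreatic epithelium, and the cassette held a GFP-linked short hairpin RNA against *Smad4* that doxycycline (Dox) switches on. All groups therefore carried the hairpin, and cells kept on Dox were Smad4 off, while cells cultured without Dox for 5 days before plating were Smad4 on. Treatment began 24 h after plating. Cells in either state received, for 24 h, 100 pM of recombinant mouse TGFβ1 or 2.5 µM of SB505124, which blocks the kinase of the type I TGFβ receptor. The comparator for TGFβ1 was thus blocked signaling and not untreated cells, and no library here had Dox with a control hairpin, so an effect of Dox and an effect of *Smad4* cannot be told apart. The labels do not say that libraries came from separate cultures beyond the 2 lines, and p-values measure only the spread between these libraries.

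Totals ran from 18389235 to 23440550 counts per library, so that 3 counts, the floor used here, were worth 0.128 to 0.163 CPM (counts per 1000000 library counts). The CPM given throughout were scaled by TMM, a normalization that trims extreme genes. *Smad4* went with its labels, at 33.7 to 35.5 CPM in the 4 Smad4-off libraries and 97.4 to 117 CPM in the 4 Smad4-on libraries. The epithelial keratin *Krt18* stood at 592 CPM or more in every library, whereas *Epcam*, another epithelial marker, stood at 0.153 to 2.11 CPM and was nearly absent. The other listed epithelial markers ranged widely, with *Cdh1* at 11.5 to 469 CPM and *Krt7* at 12.6 to 649 CPM. *Krt8* stood at 236 to 2410 CPM and *Krt19* at 153 to 1575 CPM. Among markers of blood cells, *Cd3e*, *Pf4*, *Cpa3*, *Tpsb2* and *Fcer1a* had no count in any library, *Ptprc* had 0 to 3 counts, and 0 of 5 mast cell markers exceeded the floor anywhere. Of 4 platelet and megakaryocyte markers, *Itga2b* had 21 to 59 counts and *Ppbp* 0 to 32, and their summed CPM lay between 1.24 and 3.64. The summed CPM of 7 leukocyte markers lay between 1.33 and 6.49, carried by *Cd68*, and was lowest in the Smad4-on, TGFβ1 libraries (1.33 to 1.48). Of 7 tuft cell markers, *Gnat3* and *Il25* had no count and *Dclk1* stood at 32.9 to 79.7 CPM. *Trpm5* had 7 to 19 counts and *Avil* 7 to 38, above the floor in every library, while *Pou2f3* had 0 to 3 and *Sh2d6* 0 to 1. The summed CPM of 5 fibroblast markers reached 631 in the B87 library of the Smad4-on, TGFβ1 group, nearly all of it *Col1a1* (627 CPM), while *Lum* was at 0 throughout. *Pdgfra* had 12 to 154 counts, above the floor in every library, *Col1a2* 0 to 59 and *Dcn* 0 to 3. Of 4 endothelial markers, *Kdr* had 7 to 506 counts. Their summed CPM lay between 0.702 and 26.05 and was highest in the Smad4-off, TGFβ1 group. The part of all these markers in the results was not tested.

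The 250 bases before the annotated start of 3 members are shown because these genes made the calls described below in opposite directions: *Ptgs2* and *Alox5* were higher with TGFβ1, and *Ptgs1* was lower with TGFβ1 in Smad4-on cells. Sequences are those of RefSeq on GRCm38.p6, where 8 of the 10 members had a promoter window, and are written 5′ to 3′ on the strand of the gene. Capitals mark a match to one of 6 motifs searched on both strands in the window of 300 bases, which includes the 50 bases after the start: a TATA box (TATAAA), a GC box (GGGCGG), an E-box (CACGTG), the core of a cAMP response element (TGACG), an AP-1 site (TGANTCA) and a SMAD element (CAGACA). The *Ptgs2* stretch is chr1:150099781-150100030 on the plus strand, that of *Ptgs1* is chr2:36230176-36230425 on the plus strand, and that of *Alox5* is chr6:116461179-116461428 on the minus strand.
Ptgs2: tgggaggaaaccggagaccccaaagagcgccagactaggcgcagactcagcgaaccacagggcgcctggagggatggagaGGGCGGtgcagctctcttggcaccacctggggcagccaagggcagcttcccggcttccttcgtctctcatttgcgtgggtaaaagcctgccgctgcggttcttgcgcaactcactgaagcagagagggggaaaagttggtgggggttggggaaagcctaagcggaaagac
Ptgs1: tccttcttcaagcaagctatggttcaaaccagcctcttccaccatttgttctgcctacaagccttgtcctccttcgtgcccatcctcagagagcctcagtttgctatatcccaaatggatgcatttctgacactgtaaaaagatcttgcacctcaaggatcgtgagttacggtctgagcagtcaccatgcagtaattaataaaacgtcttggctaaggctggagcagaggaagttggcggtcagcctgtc
Alox5: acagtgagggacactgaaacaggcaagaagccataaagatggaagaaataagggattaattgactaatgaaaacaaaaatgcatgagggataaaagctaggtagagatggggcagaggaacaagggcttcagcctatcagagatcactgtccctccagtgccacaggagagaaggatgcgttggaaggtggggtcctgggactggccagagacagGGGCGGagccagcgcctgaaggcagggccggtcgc

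The letters of the GC box began 170 bases before the start of *Ptgs2* and 35 bases before that of *Alox5*, and none of the 6 motifs matched in the window of *Ptgs1*. A GC box was found in 35.7% of all 32851 windows and in 6 of the 9 member windows, so it is common. *Ptges*, called lower with TGFβ1 in Smad4-on cells, had 2 matches to it, and *Ptger4*, called in none of the 4 comparisons, had 4. In *Ptgs2* the letters of the E-box and of the cAMP response element also occurred, 17 and 14 bases after the start, where they overlap each other in part. Those motifs were found in 7.15% and 20.8% of all windows. Neither TGANTCA (7.81% of all windows) nor CAGACA (21.0%) matched in any of the 9 member windows, which says only that these letters are not in these stretches. The GC content of the 250 bases was 61.6% for *Ptgs2*, 52.8% for *Alox5* and 48.0% for *Ptgs1*, against a median of 52.4% over all windows.

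*Ptgs2* rose with TGFβ1 in both *Smad4* states and was higher under TGFβ1 where *Smad4* was on. *Ptgs1* rose with *Smad4* under the inhibitor and was lower with TGFβ1 in Smad4-on cells, and *Alox5* was counted above the floor only in the 4 TGFβ1 libraries. A gene was called at a Benjamini-Hochberg adjusted p under 0.05 over 14301 tested genes in edgeR's quasi-likelihood test and a change over 2-fold. For Smad4 on against off under TGFβ1, 2 of the 6 tested members rose (*Ptgs2* and *Alox5*) and 0 fell, where the shares over all tested genes were 1.31% higher and 1.80% lower. Under SB505124, 1 of 6 rose (*Ptgs1*) and 0 fell, against 0.636% and 0.455% of all tested genes. For TGFβ1 against SB505124 in Smad4-on cells, 2 of 6 rose (*Ptgs2* and *Alox5*) and 2 fell (*Ptgs1* and *Ptges*), against 5.62% and 8.31%. In Smad4-off cells, 2 of 6 rose (*Ptgs2* and *Alox5*) and 0 fell, against 3.11% and 2.82%. *Alox5* passed the filter only through TGFβ1 libraries and *Ptges* only through libraries of B73, where they were high, so these counts are descriptions. The 4 comparisons share groups with one another, and *Ptgs2* and *Alox5* therefore appear in several with the same libraries.

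**Figure D1:**
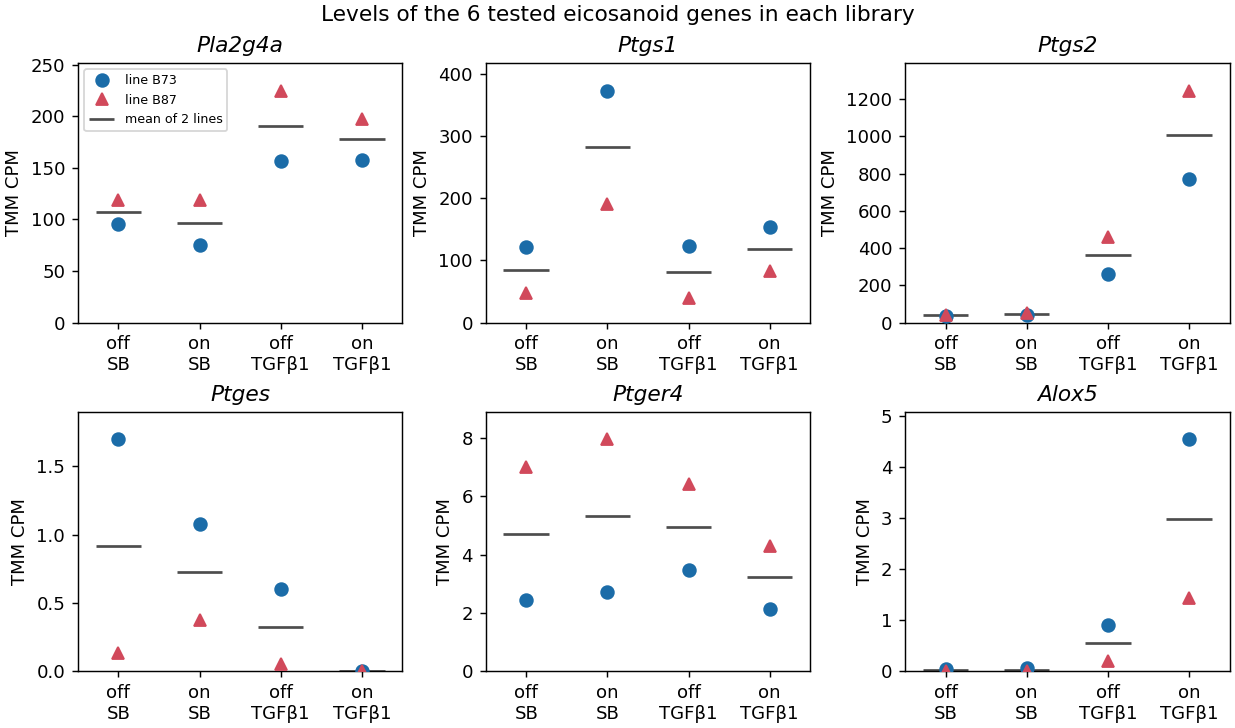
Levels (TMM CPM, linear axes from 0) of the 6 tested members by *Smad4* state (off, on) and treatment (SB, SB505124). Circles are line B73, triangles line B87 and bars the mean of both; *Ptgs2* reached 773 and 1244 CPM in the Smad4-on, TGFβ1 libraries, and *Ptges* was at 0 there.

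*Pla2g4a*, the cytosolic phospholipase A2 that frees arachidonic acid, rose with TGFβ1 in both *Smad4* states, and its differences with *Smad4* did not pass the test. In B73 it measured 95.8 and 74.8 CPM under SB505124 (Smad4 off, then on) and 157 and 158 CPM under TGFβ1. In B87 the values in the same order were 119, 119, 225 and 198 CPM. Every TGFβ1 library lay above every SB505124 library. TGFβ1 raised it by a log2 fold change of 0.90 ± 0.11 (SE) in Smad4-on cells (1.86-fold, adjusted p = 0.00124) and 0.81 ± 0.11 in Smad4-off cells (1.76-fold, adjusted p = 0.00483). Both changes passed the test and stayed under the 2-fold rule, so *Pla2g4a* is not among the calls. In edgeR without the line the adjusted p was 0.0948 and 0.220. The difference with *Smad4* was -0.09 ± 0.11 under TGFβ1 (adjusted p = 0.670) and -0.17 ± 0.11 under SB505124 (adjusted p = 0.578), with overlapping groups.

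*Ptgs2* (ENSMUSG00000032487, chromosome 1 from 150100031 to 150108227, plus strand), the gene of cyclooxygenase 2, was the member with the highest level per kilobase under TGFβ1. In B73 it had 738 and 794 counts under SB505124 (Smad4 off, then on) and 6058 and 15151 counts under TGFβ1, or 36.8, 42.9, 259.6 and 773 CPM. In B87 the counts were 939, 1284, 9254 and 24405, or 41.2, 53.4, 461 and 1244 CPM. The order of the 4 conditions was the same in both lines, and every TGFβ1 library lay above every SB505124 library. TGFβ1 raised *Ptgs2* 8.89-fold in Smad4-off cells (log2 fold change 3.15 ± 0.17, adjusted p = 0.000376) and 20.5-fold in Smad4-on cells (4.36 ± 0.18, adjusted p = 3.86e-05). By size of change it ranked 73 of 445 genes called higher in Smad4-off cells and 70 of 804 in Smad4-on cells. Both calls held in every alternative fit, with an adjusted p of at most 0.0235 and 0.00345.

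*Ptgs2* was 2.82-fold higher with *Smad4* on than off under TGFβ1 (log2 fold change 1.497 ± 0.16, adjusted p = 0.00442), with 1.57 in B73 and 1.43 in B87. Under SB505124 the difference was 0.29 ± 0.17 (adjusted p = 0.536), with 0.22 in B73 and 0.37 in B87. The means were 39.0 ± 3.12 CPM with *Smad4* off and 48.2 ± 7.43 CPM with *Smad4* on under SB505124, against 360.3 ± 142 and 1009 ± 333 CPM under TGFβ1 (SD, n = 2 each). Per kilobase of exon, the Smad4-on, TGFβ1 mean of 220.3 CPM per kb placed *Ptgs2* at rank 167 of 14301 tested genes, compared with rank 5589 in Smad4-off cells under SB505124. The *Smad4* call under TGFβ1 was lost in edgeR without the line (adjusted p = 0.169), though not in DESeq2 without it (adjusted p = 0.000170), and was kept when any 1 library was left out, with an adjusted p of at most 0.0379.

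Whether the change of *Ptgs2* with *Smad4* differed between treatments was tested as an interaction. Its size was 1.21 ± 0.23 on the log2 scale, with 1.36 in B73 and 1.06 in B87. The unadjusted p was 0.00122 and the adjusted p was 0.142, so it was not called. In the interaction 0 of 6 members were called, against 0.189% of all tested genes, and 3 members had an unadjusted p under 0.05 (*Ptgs2*, *Ptgs1* and *Ptges*). DESeq2 with the line called *Ptgs2* (adjusted p = 0.000211) and *Ptgs1* (adjusted p = 0.00289), and so did edgeR without the filter on low counts (adjusted p = 0.000117 and 0.000409).

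*Ptgs1* (ENSMUSG00000047250, chromosome 2 from 36230426 to 36252272, plus strand), the gene of cyclooxygenase 1, was highest where *Smad4* was on and TGFβ signaling was blocked. In B73 its counts were 2422, 6887, 2873 and 2998 in the order Smad4 off and on under SB505124, then off and on under TGFβ1, or 121, 372, 123 and 153 CPM. In B87 they were 1063, 4592, 807 and 1636, or 46.7, 191, 40.2 and 83.4 CPM. The 2 Smad4-on, SB505124 libraries lay above the other 6. *Ptgs1* was 3.55-fold higher with *Smad4* on than off under SB505124 (log2 fold change 1.83 ± 0.18, adjusted p = 0.00699), with 1.62 in B73 and 2.03 in B87. Under TGFβ1 the difference was 0.67 ± 0.18 (adjusted p = 0.0743), with 0.31 in B73 and 1.05 in B87 and overlapping groups.

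In Smad4-on cells *Ptgs1* was 2.36-fold lower with TGFβ1 than with SB505124 (log2 fold change -1.24 ± 0.18, adjusted p = 0.00252), and the groups did not overlap. In Smad4-off cells the difference was -0.08 ± 0.18 (adjusted p = 0.818). The interaction was -1.16 ± 0.25 (unadjusted p = 0.00237, adjusted p = 0.182), with -1.31 in B73 and -0.98 in B87. The *Smad4* call under SB505124 was kept when any 1 library was left out (adjusted p of at most 0.0495), whereas without the line its adjusted p was 0.911 and that of the TGFβ1 call in Smad4-on cells 0.285. Of the exon bases of *Ptgs1*, 3.81% overlap *Gm43621* on the opposite strand, which had 3 to 40 counts. How strand was handled in counting was not stated.

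**Figure D2:**
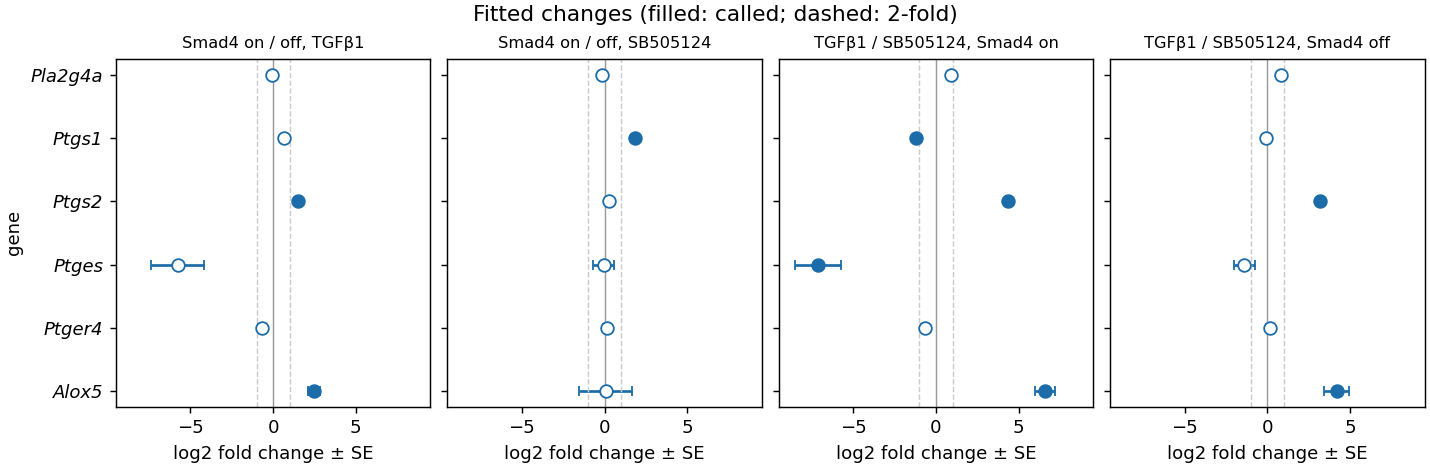
Fitted log2 fold changes with their standard errors (horizontal axis) for the 6 tested members in the 4 comparisons. Filled circles were called and dashed lines mark 2-fold; *Ptgs2* lies right of the line in 3 panels and *Ptgs1* lies right under SB505124 and left in Smad4-on cells, while fitted values of *Ptges* and *Alox5* against groups at the floor depend on the prior count and are no measure of size.

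The larger share of cyclooxygenase transcripts was *Ptgs1* in all SB505124 libraries and *Ptgs2* in all TGFβ1 libraries. On the scale of CPM per kilobase of exon, *Ptgs2* made up 20.5% of the sum of both in B73 cells with *Smad4* off under SB505124, 8.91% with *Smad4* on under SB505124, 64.1% with *Smad4* off under TGFβ1 and 81.1% with *Smad4* on under TGFβ1. In B87 the shares were 42.8%, 19.2%, 90.7% and 92.7% in the same order. In both lines the share was lowest with *Smad4* on under SB505124 and highest with *Smad4* on under TGFβ1, although the last step was small in B87. The summed level rose with *Smad4* under either treatment, from 39.2 to 105 CPM per kb in B73 and from 21.0 to 60.8 CPM per kb in B87 under SB505124. Under TGFβ1 it went from 88.4 to 208 CPM per kb in B73 and from 111 to 293 CPM per kb in B87. With 2 libraries per group these shares are descriptions.

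**Figure D3:**
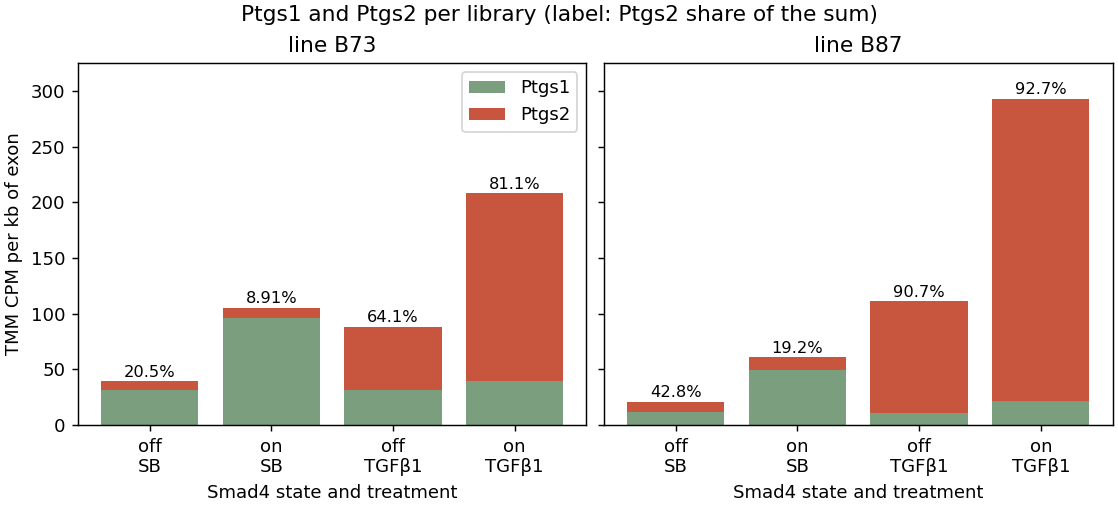
Stacked levels of *Ptgs1* and *Ptgs2* (TMM CPM per kilobase of exon) in each library, by line, *Smad4* state and treatment (SB, SB505124). The label over each bar is the share of *Ptgs2*, which rises from 8.91% to 81.1% between the Smad4-on libraries of B73.

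*Ptges*, the gene of microsomal prostaglandin E synthase 1, was scarce. In B73 it had 34, 20, 14 and 0 counts (Smad4 off and on under SB505124, then off and on under TGFβ1), or 1.70, 1.08, 0.5999 and 0 CPM. In B87 it had 3, 9, 1 and 0 counts, or 0.132, 0.374, 0.0498 and 0 CPM. Both Smad4-on, TGFβ1 libraries thus had no count. Against their floor of 3 counts per library, *Ptges* in Smad4-on cells was at least 4.75-fold lower with TGFβ1 than with SB505124 (adjusted p = 0.0119), at least 7.06-fold in B73 and at least 2.45-fold in B87. The call was lost without the Smad4-on, TGFβ1 library of B73 (adjusted p = 0.150) and without the line (adjusted p = 0.154). For *Smad4* on against off under TGFβ1 the difference was not called (adjusted p = 0.0982), although without the filter on low counts it was (adjusted p = 0.0150). There the bound was 2.12-fold for the group means, but in B87 the Smad4-off library held 1 count and the depth cannot show a difference. Of the genes named for other prostaglandin E synthases, *Ptges3* stood at 71.2 and 81.0 CPM (means with *Smad4* off and on under TGFβ1) and *Ptges2* at 18.8 and 20.6 CPM. Neither was called in any of the 4 comparisons.

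*Hpgd*, which encodes the dehydrogenase that starts the breakdown of prostaglandins, had 2 counts in the B87, Smad4-on, SB505124 library and 0 in the other 7, below the floor everywhere. *Ptger4*, which encodes the EP4 receptor for prostaglandin E2, was low in both lines. It measured 2.45, 2.70, 3.47 and 2.14 CPM in B73 and 6.98, 7.94, 6.43 and 4.28 CPM in B87, in the same order of conditions. Every B87 library lay above every B73 library. Of its 4 differences none was called, with -0.65 ± 0.25 for *Smad4* under TGFβ1 (adjusted p = 0.178) and -0.65 ± 0.25 for TGFβ1 in Smad4-on cells (adjusted p = 0.0887). Of the exon bases of *Ptger4*, 16.5% overlap genes on the opposite strand, so these values are less certain. *Ttc33*, with 365 to 469 counts, covers 1.23% of the exon bases, and the pseudogene *Gm15937*, with 0 to 1 count, covers 15.27%.

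*Alox5* (ENSMUSG00000025701, chromosome 6 from 116410077 to 116461178, minus strand), the gene of 5-lipoxygenase, rose from the floor with TGFβ1. In B73 it had 1, 1, 21 and 89 counts (Smad4 off and on under SB505124, then off and on under TGFβ1), and in B87 0, 0, 4 and 28 counts. The TGFβ1 libraries stood at 0.900 and 4.54 CPM in B73 and at 0.199 and 1.43 CPM in B87. Against the floor, TGFβ1 left *Alox5* at least 20.8-fold higher in Smad4-on cells (adjusted p = 0.000433), at least 28.02-fold in B73 and at least 11.4-fold in B87. In Smad4-off cells it was at least 3.904-fold higher (adjusted p = 0.0156), with bounds of 6.01 in B73 and 1.51 in B87. With *Smad4* on it was 5.59-fold above *Smad4* off under TGFβ1 (log2 fold change 2.48 ± 0.37, adjusted p = 0.0127), with 2.22 in B73 and 2.37 in B87.

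These levels remained small, since *Alox5* at its highest mean, 0.727 CPM per kb, stood above 21.5% of the tested genes. The *Smad4* call was lost when any 1 of the 4 TGFβ1 libraries was left out (adjusted p from 0.0723 to 0.174) and without the line (adjusted p = 0.381). The TGFβ1 call in Smad4-off cells was lost in the same way, without any 1 of the 4 libraries compared (adjusted p from 0.0577 to 0.149) and without the line (adjusted p = 0.217). *Alox5ap*, which encodes the activating protein that hands arachidonic acid to 5-lipoxygenase, had 0 or 1 count in each library, 5 in all, under the floor everywhere. *Alox12*, the platelet-type 12-lipoxygenase, had 2 to 6 counts per library in all conditions, and *Alox15*, the 12/15-lipoxygenase, had 1 count in all 8 libraries together.

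The lines differed in the level of several members. Between B87 and B73, 1 of 6 tested members was called higher in B87 (*Ptger4*, log2 fold change 1.24 ± 0.18, adjusted p = 0.00393), against 3.87% of all tested genes, and 3 were called lower, against 4.50%. These were *Ptgs1* (-1.20 ± 0.13, adjusted p = 0.00112), *Alox5* (-1.86 ± 0.36, adjusted p = 0.0129) and *Ptges* (-2.55 ± 0.52, adjusted p = 0.0220). *Ptges* passed the filter only through libraries of B73, the line where it was high, so its call between the lines is a description. *Ptgs2* (0.51 ± 0.12, adjusted p = 0.0234) and *Pla2g4a* (0.46 ± 0.08, adjusted p = 0.00715) were higher in B87 by less than 2-fold. The calls of *Ptges* and *Alox5* were each lost without any 1 of 4 libraries, with an adjusted p of at most 0.0986 and 0.0874, and in DESeq2 (adjusted p = 0.0526 and 0.0644). The 4 for *Ptges* were the Smad4-off libraries, and the 4 for *Alox5* were the TGFβ1 libraries.

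A different response of the lines was tested directly. For line by treatment, 0 of 6 members and 0% of all tested genes were called in edgeR. At an unadjusted p under 0.05 there were 1198 genes and 1 member, *Ptgs2*, and DESeq2 called 25 genes. The TGFβ1 response of *Ptgs2* was larger in B87 by 0.52 ± 0.11 on the log2 scale (unadjusted p = 0.00442, adjusted p = 0.534). For line by *Smad4*, 0 of 6 members were called in edgeR, against 0.392% of all tested genes. The member with an unadjusted p under 0.05 was *Ptgs1*, whose change with *Smad4* was larger in B87 by 0.57 ± 0.13 (unadjusted p = 0.00316, adjusted p = 0.170).

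Beyond these members, 60 further genes of the pathway were in the table and 27 of them were tested. For TGFβ1 against SB505124 in Smad4-on cells, 2 rose and 7 fell (5.62% and 8.31% of all tested genes), and the median log2 fold change of the 27 was -0.55 against -0.02 over all tested genes. Those called higher were *Mgll* and *Tbxas1* (thromboxane synthase), which were at or under the floor in both Smad4-on, SB505124 libraries and passed the filter through libraries where they were high, so that their calls are descriptions. The same holds for the calls of *Ptgds* and *Ptger3* against groups near the floor. Those that fell were *Ptgds*, *Ptger3*, *Slco2a1*, *Mgst2*, *Faah*, *Pla2g4c* and *Cbr1*. In Smad4-off cells 0 rose and 3 fell, *Slco2a1*, *Ptger3* and *Mgst2* (median -0.36 against -0.02, shares over all tested genes 3.11% and 2.82%). For *Smad4* on against off, 0 rose and 1 fell under TGFβ1 (median 0.04 against -0.01, shares over all tested genes 1.31% and 1.80%). Under SB505124, 2 rose and 0 fell (median 0.06 against 0.00, shares 0.636% and 0.455%). In the interaction 0 of the 27 were called. None of the 4 leukotriene receptor genes passed the filter.

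*Slco2a1*, the transporter that takes up prostaglandins for clearance, was called in 3 of the 4 comparisons. In B73 it stood at 5.89, 41.9, 0.814 and 3.01 CPM (Smad4 off and on under SB505124, then off and on under TGFβ1), and in B87 at 52.0, 130 and then 8.12 and 21.5 CPM. Within each line, *Slco2a1* was lower with TGFβ1 in either *Smad4* state and higher with *Smad4* on under either treatment. With TGFβ1 it was 9.17-fold lower in Smad4-on cells (log2 fold change -3.20 ± 0.38, adjusted p = 0.00119) and 6.25-fold lower in Smad4-off cells (-2.64 ± 0.41, adjusted p = 0.00856). The second call was lost without either Smad4-off library of B87 (adjusted p = 0.0784 and 0.0612), and both were lost without the line (adjusted p = 0.266 and 0.442). With *Smad4* it was 4.13-fold higher under SB505124 (adjusted p = 0.0467), a call lost in 6 of the 8 fits with 1 library left out (adjusted p up to 0.270), with only the 4 libraries compared (adjusted p = 0.146) and without the line (adjusted p = 1.0). Under TGFβ1 the change was not called (log2 fold change 1.49 ± 0.42, adjusted p = 0.0861).

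*Mgst2*, a microsomal glutathione transferase that can make leukotriene C4, stood at 59.5, 47.0, 28.6 and 8.01 CPM in B73 and at 29.2, 30.4, 13.6 and 9.18 CPM in B87. It was 4.30-fold lower with TGFβ1 in Smad4-on cells (adjusted p = 0.00221) and 2.10-fold lower in Smad4-off cells (adjusted p = 0.0447), the latter lost without any 1 of 6 libraries (adjusted p from 0.0701 to 0.287) and without the line (adjusted p = 0.319). *Mgll*, whose product frees arachidonic acid from a monoacylglycerol, had 1 count in each Smad4-on, SB505124 library and 11 and 49 counts with TGFβ1, at least 10.7-fold higher against the floor (adjusted p = 0.00494), with bounds of 3.46 in B73 and 20.0 in B87. That call was lost without the Smad4-on, SB505124 library of B87 (adjusted p = 0.181) and without the line (adjusted p = 0.130). *Ptgds*, a prostaglandin D synthase, had no count in either Smad4-on, TGFβ1 library and 8 to 14 counts in the Smad4-off ones, at least 3.26-fold lower with *Smad4* on (adjusted p = 0.0415). Leaving out any 1 library ended this call (adjusted p from 0.0507 to 0.185), as did a fit without the line (adjusted p = 0.125). Against the 5 and 15 counts of the Smad4-on, SB505124 libraries *Ptgds* was at least 2.92-fold lower (adjusted p = 0.0150), lost without either Smad4-on library of B87 (adjusted p = 0.0780 and 0.0621).

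*Ptger3*, the gene of the EP3 receptor, was called in 3 of the 4 comparisons but was measured in 1 line only. In B73 it had 16 and 179 counts with *Smad4* off and on under SB505124 and 1 and 5 counts under TGFβ1. In B87 it had 0 or 1 count in all 4 libraries. Its calls (*Smad4* under SB505124, adjusted p = 0.00950; TGFβ1 in Smad4-on cells, adjusted p = 0.000358; TGFβ1 in Smad4-off cells, adjusted p = 0.0148) therefore rest on B73. Each was lost without either B73 library compared, and in edgeR without the line (adjusted p = 0.997, 0.228 and 0.622). DESeq2 with the line also lost the call for *Smad4* under SB505124 (adjusted p = 0.145) and that for TGFβ1 in Smad4-off cells (adjusted p = 0.230).

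**Figure D4:**
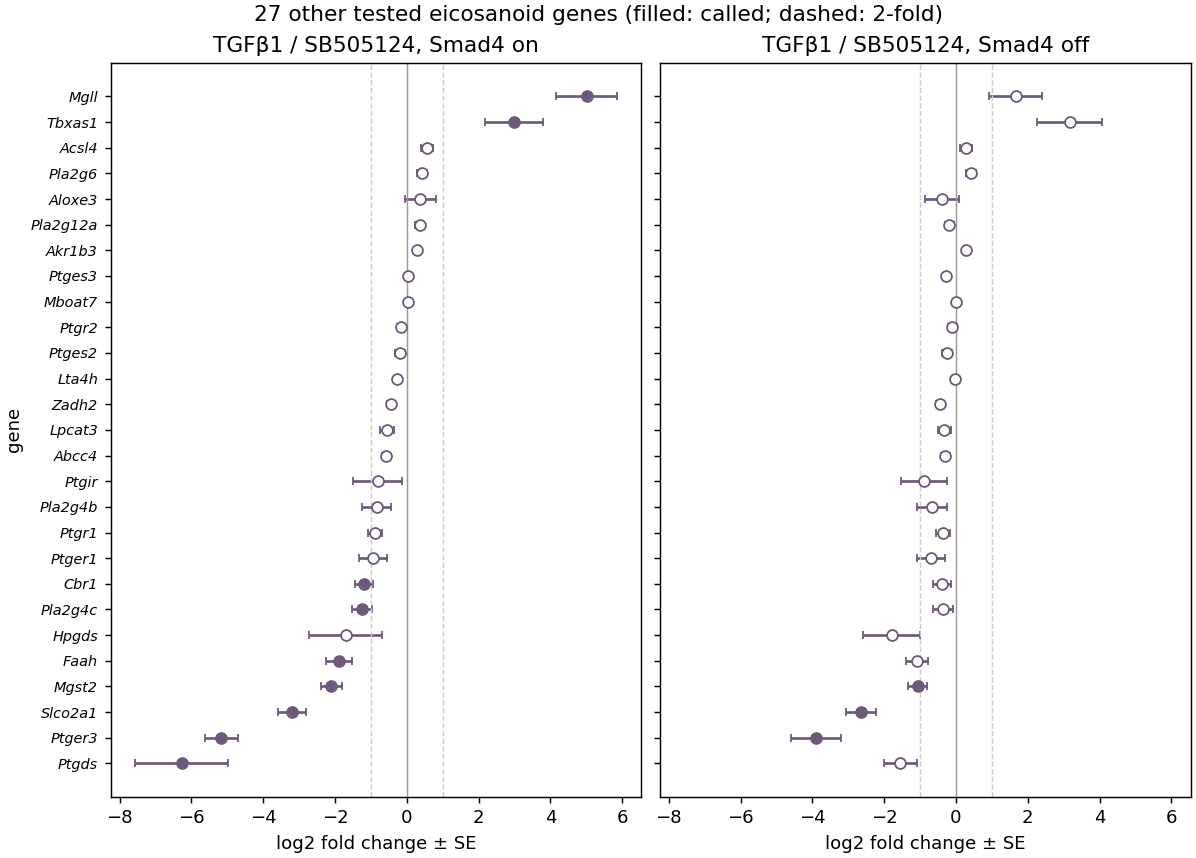
Fitted log2 fold changes with standard errors of the 27 further tested pathway genes for TGFβ1 against SB505124, in Smad4-on cells (left) and Smad4-off cells (right), in the order of the left panel. Filled circles were called and dashed lines mark 2-fold; 7 filled circles lie left of 0 in the left panel and 3 in the right, and fitted values of *Ptgds*, *Ptger3* and *Mgll* against groups at the floor depend on the prior count.

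As a description, the genes whose pattern over the 8 libraries was closest to each of the 3 members with the highest mean CPM were found by Pearson's r of log2 CPM centred within each line, among 11099 genes. For *Ptgs2* they were *Plekho2* (r = 0.999), *Pcgf3* (0.999) and *Actn1* (0.999), and 684 genes exceeded an r of 0.95. For *Pla2g4a* they were *Znrf1* (0.998), *Morn4* (0.996) and *Rad54l2* (0.995), with 195 genes over 0.95. For *Ptgs1* they were *Itga6* (0.993), *Fitm2* (0.983) and *Taldo1* (0.982), with 11 genes over 0.95. The 8 points share their lines and treatments, and no p is given.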

How the data were processed

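One further allele that all libraries share is not reported here. The 8 libraries, stranded and poly(A)-selected, were sequenced as single-end reads of 75 bases. Per the labels, the authors used FastQC 0.11.5, Trimmomatic 0.36, STAR 2.5.3a and featureCounts 1.6.3 on GRCm38 (mm10), and deposited raw counts per gene, not normalized and not pooled. Settings for strand and multimapping reads were not given in the sources used here.

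The deposited counts were tested with edgeR 4.0.16 in R 4.3.3 (TMM, filterByExpr, quasi-likelihood F-test). One fit over all 8 libraries had a term per group and the cell line as a replicate block. The pairing comes from the line named in each title, and differences between lines correlated across groups (0.642 to 0.774 over 6 pairs of groups). The study's DESeq2 methods name no covariate, so each call described that was lost in edgeR without the line is given with that value. The exceptions are *Tbxas1*, *Faah*, *Pla2g4c* and *Cbr1*, for which the fit without the line is not reported, so whether their calls held in it is not stated. A call needed an adjusted p under 0.05 and a change over 2-fold. SE is the size of the log2 fold change over the square root of F. Changes per line are differences of log2 CPM (prior count 2). Floors and bounds use 3 counts per library and cover counting error only, since PCR copies cannot be told apart.

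Named were all 10 members, further pathway genes called in the 4 comparisons or the interaction (at most 4 per comparison, by size), the 3 most alike genes for the 3 members with the highest mean CPM, and *Smad4* as a check of the labels. *Ptges2*, *Ptges3*, *Tbxas1*, *Faah*, *Pla2g4c*, *Cbr1* and marker genes were named after their values were seen. The members and lists were chosen with earlier results of these data known. Lengths per kilobase are the exon lengths deposited beside the counts. Exon overlaps came from GENCODE M21, whose exon lengths for the members equal those in the table. On counts simulated for 14301 genes with 200 changed (*Smad4* on against off under TGFβ1), edgeR with the line recovered 66.5% of 2-fold and 92.5% of 4-fold changes. Without the line it recovered 0% and 57.5%. Recovery here meant an adjusted p under 0.05 without the 2-fold rule. The simulated lines differed in level but had the same change, with a spread set beforehand, so the setting favored the fit with the line. Alternatives were DESeq2 1.42.0 with and without the line, DESeq2 size factors, other filters, no fold rule, only the 4 libraries compared, edgeR without the line, and leaving out each library.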

Additional observations from a re-analysis of the deposited data

How the results depend on the processing

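Alternatives gave 554 results for a member's log2 fold change. Of these, 503 kept direction and side of the threshold, 29 lost a call, 10 gained one and 12 changed sign. Dropping the fold rule re-used the reported fit, so its 34 kept and 4 gained results could not change direction. For line by treatment only *Ptgs2* was counted, and for line by *Smad4* only *Ptgs1*. These were the members with an unadjusted p under 0.05 there. All 12 sign changes came from leaving out 1 library and concerned changes that were not called. Members not counted there also varied in sign over all alternatives. Line by treatment ran from -0.23 to 0.11 for *Pla2g4a*, -0.46 to 0.31 for *Ptgs1* and -1.79 to 2.42 for *Ptges*. Line by *Smad4* ran from -0.07 to 0.26 for *Pla2g4a*, -0.31 to 0.35 for *Ptgs2*, -0.23 to 0.42 for *Ptger4* and -1.14 to 1.54 for *Alox5*. Over the fits with 1 library left out, the log2 change with *Smad4* under TGFβ1 ran from -0.18 to 0.0008 for *Pla2g4a*. With *Smad4* under SB505124 it ran from -0.62 to 1.38 for *Ptges*, from -0.0709 to 0.39 for *Ptger4* and from -1.19 to 1.24 for *Alox5*. With TGFβ1 in Smad4-off cells it ran from -0.38 to 0.18 for *Ptgs1* and from -0.0553 to 0.43 for *Ptger4*, and in the interaction from -0.0543 to 0.22 for *Pla2g4a*. All 24 member levels moved by less than 1 SD when scaled to the raw library total.

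Members called for *Smad4* under TGFβ1, 2 in the reported fit, were 1 with at least 10 counts in every library, 1 in DESeq2 with no replicate block, 0 in edgeR with no replicate block, 3 with no filter on low counts (*Ptges* gained) and 1 to 2 with 1 library left out. For *Smad4* under SB505124 the 1 call became 0 in either tool with no replicate block and stayed 1 with any library left out. For TGFβ1 in Smad4-on cells, 4 calls became 2 with at least 10 counts in every library and 2 in edgeR with no replicate block, and were 3 to 5 with 1 library left out. For TGFβ1 in Smad4-off cells, 2 calls became 1 with at least 10 counts in every library, 1 in either tool with no replicate block and 1 with only the 4 libraries compared, and were 1 to 2 with 1 library left out. The interaction had 0 calls in the reported fit, 2 without a filter on low counts and 2 in DESeq2 with the line. Between the lines, 4 calls became 2 with at least 10 counts in every library and 2 in DESeq2, and were 2 to 4 with 1 library left out. That minimum tests 4 of the 10 members, since it removes *Alox5* and *Ptges*. Over all tested genes, edgeR with no replicate block called 36 in place of 446 for *Smad4* under TGFβ1, 2 in place of 156 under SB505124, 1035 in place of 1993 for TGFβ1 in Smad4-on cells and 168 in place of 848 in Smad4-off cells. DESeq2 called 134 genes in place of 27 in the interaction, and edgeR with no filter 284. In the order of those 4 comparisons, a minimum of 10 counts in every library left 297, 77, 1293 and 519 calls, DESeq2 with no replicate block 262, 97, 1363 and 476, and no filter gave 783, 403, 2305 and 1172. Between the lines that minimum left 488 of 1197 calls, and for line by *Smad4* the 56 calls were 30 with it, 103 in DESeq2 and 399 with no filter. For line by treatment no filter gave 80. The cause of the other changes was not tested. At this depth *Hpgd*, *Alox5ap* and *Alox15* were below the floor of 3 counts in every library, so no difference in them was detectable.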
